A study of Mus musculus with 16 samples.

Results

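Mecom and Prdm16 are the genes of a pair of closely related PR domain zinc finger proteins, and the open chromatin regions at these loci in mouse haematopoietic stem cells (HSCs) are described here. Overlapping peaks of 16 ATAC-seq libraries were merged into regions, and those with a call in 2 or more libraries were used. A region belonged to a locus when Mecom or Prdm16 was its nearest protein-coding gene, within 100 kb of its median summit. There were 35 such regions of 33773 in all, 16 at Mecom and 19 at Prdm16. ATAC-seq marks open DNA by where a transposase can insert adapters. Peaks were listed for every library separately. What is compared is therefore the presence of a call, and the lack of one does not show that a region was closed.

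The libraries fell into 4 groups of 4, all made from 10000 sorted HSCs of male mice. Old post HSCs came from the marrow of young BJ mice, lethally irradiated and pooled by 5, that had received 1000 HSCs of 1 B6 donor aged 24 months. They were taken 3 months after the transplantation, in which 300000 helper marrow cells of BJ mice, depleted of Sca-1, were given too. Young post HSCs came from the same procedure with donor HSCs pooled from 3 to 4 B6 mice aged 8 to 12 weeks. Old pre and young pre HSCs were the cells of these same donors before transplantation, so libraries of 1 age and number form a donor pair. No label states that a donor marker was used to sort the post HSCs, so the share of recipient or helper HSCs in them is unknown. No transposition day held both pre and post libraries, so stage and day cannot be told apart. Day 1 held only old pre 1 and 2.

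The lists held 23287, 28498, 31003 and 14008 peaks in old post 1 to 4, against 32530, 30784, 31409 and 32007 in young post 1 to 4. They held 27302, 30520, 17299 and 5687 in old pre 1 to 4 and 28298, 23044, 21346 and 9614 in young pre 1 to 4. The sequencing depth behind each list is unknown. Old pre 1 and 2 stood apart, since 466 regions (1.38% of all regions, and 23.7% of the 1967 called in 2 libraries) were called in them alone. Of 11 HSC marker genes, 9 had a region, among them Procr, Slamf1, Kit and Cd34, while Ly6a and Tek had none. Markers of other blood cells had a region at 4 of 8 erythroid, 5 of 9 granulocyte and monocyte, 3 of 6 B cell and 2 of 7 T and NK cell genes. Among those without a region were Hbb-b1, Hba-a1, Mpo, Elane, Cd79a, Cd3e and Cd8a. Klf1, Epor and Ly6c2 had a region called in all 16 libraries. Cd3d had 7 of 8 possible calls in old and 8 of 8 in young libraries, and Pax5 had 6 of 8 and 7 of 8. The purity of the sorted cells was not tested.

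Mecom, the Mds1 and Evi1 complex locus, encodes transcription factors that HSCs need to persist, and its activation by translocation or viral insertion is a known cause of myeloid leukaemia. Transcription from the upstream start gives the long Mds1-Evi1 protein with the PR domain, and an internal start gives Evi1, which lacks that domain. Prdm16 is the closest relative of Mecom. It is also needed for HSC maintenance, and outside blood it is known as a determinant of brown fat. Proteins of both genes bind DNA through zinc fingers and recruit corepressors of the CtBP family.

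The promoters of the 3 starts are shown because each lies in a called region and because a pair of them share a stretch of sequence. Each runs from 250 bases before to 50 bases after a transcription start (RefSeq, GRCm38.p6, minus strand, written 5′ to 3′ on that strand). The upstream Mecom promoter is chr3:30509710-30510009, the internal Mecom promoter chr3:30013155-30013454 and the Prdm16 promoter chr4:154636824-154637123. Capitals mark the longest stretch that the upstream Mecom and Prdm16 promoters have in common.
Mecom upstream start: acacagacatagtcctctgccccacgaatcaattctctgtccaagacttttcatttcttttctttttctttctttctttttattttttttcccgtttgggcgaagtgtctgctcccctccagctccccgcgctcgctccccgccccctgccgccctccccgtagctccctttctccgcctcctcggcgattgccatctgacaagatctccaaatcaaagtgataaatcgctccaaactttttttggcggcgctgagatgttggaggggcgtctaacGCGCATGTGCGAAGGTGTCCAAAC
Mecom internal start: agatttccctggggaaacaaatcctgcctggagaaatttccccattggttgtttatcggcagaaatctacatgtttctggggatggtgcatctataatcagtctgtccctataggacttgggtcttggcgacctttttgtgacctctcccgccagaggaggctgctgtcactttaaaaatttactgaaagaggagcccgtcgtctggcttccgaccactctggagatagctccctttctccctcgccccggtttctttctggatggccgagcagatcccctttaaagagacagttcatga
Prdm16 start: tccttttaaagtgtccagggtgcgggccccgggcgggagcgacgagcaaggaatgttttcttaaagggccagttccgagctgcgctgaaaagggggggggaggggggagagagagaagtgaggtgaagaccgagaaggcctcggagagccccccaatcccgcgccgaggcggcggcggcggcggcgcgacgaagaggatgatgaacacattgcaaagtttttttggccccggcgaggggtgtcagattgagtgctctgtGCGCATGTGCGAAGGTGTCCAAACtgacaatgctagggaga

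The upstream Mecom promoter and the Prdm16 promoter held an identical run of 24 bases, which lies just inside the transcript in each. It covered bases 27 to 50 of the Mecom transcript and bases 10 to 33 of the Prdm16 transcript, counted from 1 at the start. The Mecom window ends at base 50, so the run may be longer than the 24 bases seen. Of 32851 promoter windows in the table, 2 held it, and these were the 2 windows named. In the 40 bases before it, 15 were identical without gaps. A run of 16 bases was shared with the upstream Mecom promoter by 23 other windows (0.07%) and with the Prdm16 promoter by 169 (0.514%). The longest run common to the internal Mecom promoter and the Prdm16 promoter was 7 bases, and 15 bases were common to the 2 Mecom promoters.

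The starts also differed in base composition. The Prdm16 promoter was 61.0% G or C with 24 CG pairs and the upstream Mecom promoter 52.0% with 19, whereas the internal Mecom promoter was 49.7% with 9. The median window of the table had 52.7% and 7 CG pairs. Searched on both strands, GGGCGG (a GC box) occurred at 2 places in the upstream Mecom promoter and 1 in the Prdm16 promoter, and 35.7% of all windows held it. CCAAT occurred once in the internal Mecom promoter and once in that of Prdm16 (37.4% of windows). GGAAG, the core of ETS family sites, occurred once, in the internal Mecom promoter (71.4% of windows). CANNTG, the E-box, occurred at 2 places in the upstream Mecom promoter and 1 in the Prdm16 promoter (72.3% of windows), and the shared stretch holds 1 such match in each. A TATA box, searched as TATAAA, was found in none of the 3 windows (13.6% of all windows). The letters AGATAA, a form of the GATA factor site, were also absent from the 3 windows (11.2%). So were the letters TGTGGT, a form of the RUNX factor site (16.8%). Other forms of these sites were not searched for, so their absence is not shown. These matches are descriptions of letters, and no binding was measured.

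The regions lay almost entirely inside the 2 genes. Of the 35, 30 were within the gene spans, which are chr3:29951296-30509759 for Mecom (558464 bp) and chr4:154316122-154637360 for Prdm16 (321239 bp). The other 5 lay upstream, at most 5418 bp from Mecom and 4035 bp from Prdm16. The gene table gives spans without exons, so exon and intron positions are not given. The next protein-coding genes had few regions. Egfem1, 260.2 kb from Mecom, had 0, and Actrt3, 87.3 kb from Mecom, had 1. Arhgef16 and Actrt2, 16015 and 29068 bp from Prdm16, had 1 each. Among 13891 genes with a region, the median was 2, and 25 genes had more than Mecom and 11 more than Prdm16.

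In what follows the regions are numbered in the direction of transcription. Distances are in kb downstream of the most upstream promoter start given above for the gene. The Prdm16 start used, at 154636873, lies inside the gene span, which reaches 154637360. At Mecom, 4 regions lay within 10 kb of its upstream start, 2 at 10 to 100 kb and 10 further into the gene. At Prdm16 these numbers were 5, 7 and 7. The median region had a width of 803.5 bp at Mecom, 952 bp at Prdm16 and 830 bp over all regions. The median number of libraries that called a region was 9.5 at Mecom, 10 at Prdm16 and 12 over all regions. Regions called in all 16 libraries numbered 3 of 35 (8.57%), against 15.6% of all regions. At the other end, 6 were called in 2 libraries only, 2 at Mecom and 4 at Prdm16. Another 4 regions at Mecom and 1 at Prdm16 had a peak in a single library, 3 of these 5 in old pre 2, and were not kept.

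**Figure D1:**
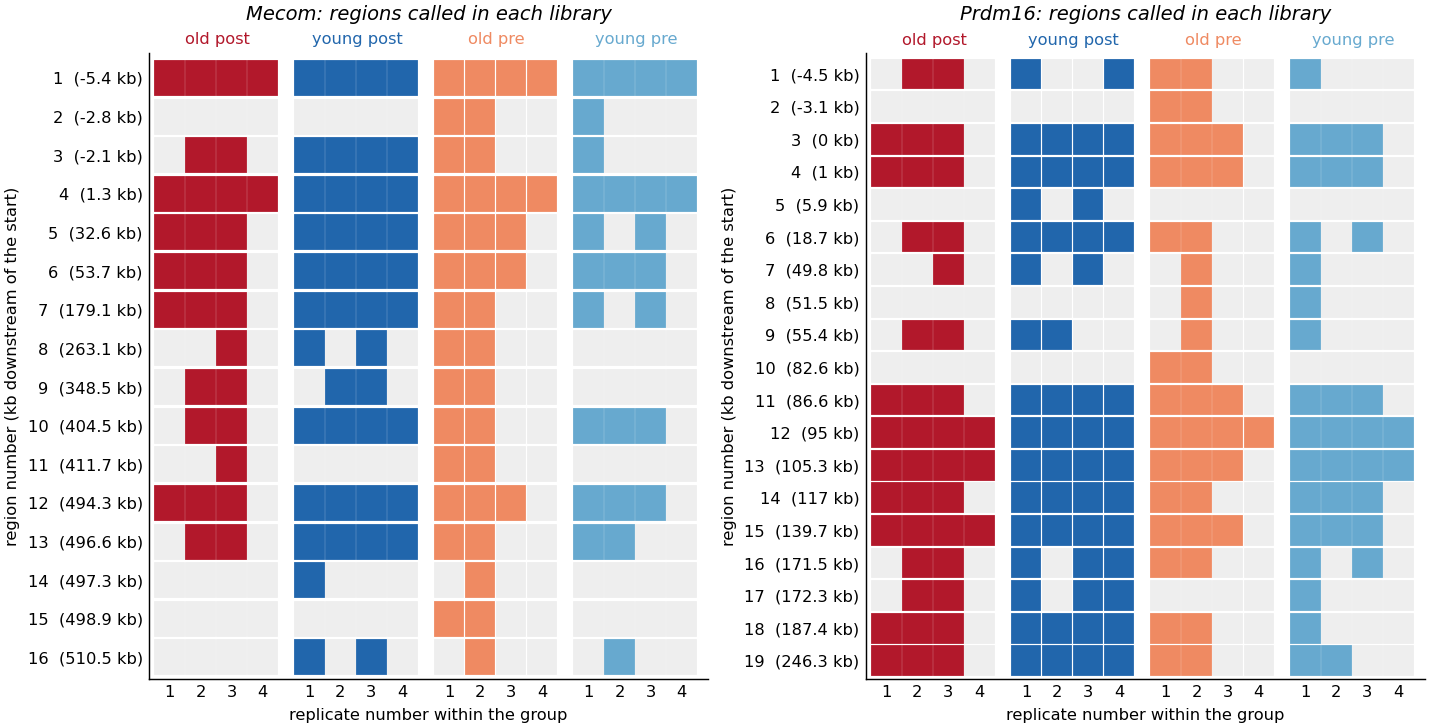
Calls by region (rows, numbered in the direction of transcription, with kb downstream of the start) and library (columns, replicate numbers within each group). A coloured cell is a call and a grey cell none. Mecom regions 1 and 4 and Prdm16 region 12 are coloured in all 16 libraries, and Mecom region 15 and Prdm16 regions 2 and 10 in old pre 1 and 2 alone.

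Mecom-4 (chr3:30506607-30510681), which holds the upstream start, was the region of the 2 loci with the highest median rank of peak score, as explained below. Its peak covered 3612, 4021, 4056 and 2571 bp in old post 1 to 4, against 4043, 3864, 4057 and 4057 bp in young post 1 to 4. It covered 3881, 3924, 3662 and 701 bp in old pre 1 to 4 and 4059, 3679, 4032 and 1317 bp in young pre 1 to 4. The narrow peaks were those of the 3 shortest lists, and the groups overlapped. Each peak carries a score, which the values and layout of the lists present as an area of significance and which the labels do not define. Nothing states that it is normalised between libraries, so it was ranked within its own list. By this rank Mecom-4 had a median percentile of 99.4 (53.9 to 99.7 over the 16 libraries). Its lowest percentile was that of old pre 4, the shortest list, and the next were 91.5 in young pre 4 and 92.8 in old post 4. A score read as an area grows with the width of its peak. By the value read as the summit's −log10 q, Prdm16-12 stood higher, with a median of 4.71 against 4.44 for Mecom-4.

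Upstream of this start, Mecom-1 (chr3:30513690-30515744, -5.4 kb) was also called in all 16 libraries, at a median percentile of 82.9 (2.45 to 90.0). Between them lay 2 weaker regions. Mecom-3 (-2.1 kb) was called in 2 of 4 old post, 4 of 4 young post, 2 of 4 old pre and 1 of 4 young pre libraries. Mecom-2 (-2.8 kb) was called in 2 of 4 old pre libraries and 1 of 4 young pre libraries and in 0 of 8 post libraries. Its peaks ranked low, at percentiles of 3.99 to 9.22.

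The internal start, from which Evi1 is transcribed, had a call in fewer libraries than the upstream start, and its peaks ranked lower. Mecom-13 (chr3:30012726-30013740), which holds it, was called in 2 of 4 old post, 4 of 4 young post, 2 of 4 old pre and 2 of 4 young pre libraries. It was missing from old post 1, old pre 3 and young pre 3 besides the 3 shortest lists. Its percentile was 30.9 and 29.3 in old post 2 and 3 and 36.6, 29.8, 35.7 and 36.8 in young post 1 to 4. It was 28.2 and 43.2 in old pre 1 and 2, and 24.5 and 15 in young pre 1 and 2. In these 10 libraries the peak at the upstream start ranked above it every time, with percentiles of at least 99.1. Around the internal start were 3 more regions, of which Mecom-12 (494.3 kb) was called in 13 libraries. Mecom-14 was called in young post 1 and old pre 2, and Mecom-15 in old pre 1 and 2, at percentiles of 5.15 or less.

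The long interval between the 2 starts held 7 regions besides Mecom-12. Mecom-6 (53.7 kb) was called in 13 libraries, and so, like Mecom-12, was missing only from the 3 shortest lists. Mecom-5 (32.6 kb) was called in 12, and Mecom-7 (179.1 kb) and Mecom-10 (404.5 kb) in 11 each. The remaining 3 were rarer and were called in 0 of 4 young pre libraries. Mecom-8 (263.1 kb) was called in old post 3, young post 1 and 3 and old pre 1 and 2. Mecom-9 (348.5 kb) was called in old post 2 and 3, young post 2 and 3 and old pre 1 and 2. Mecom-11 (411.7 kb) was called in old post 3 and old pre 1 and 2 and in 0 of 8 young libraries. Downstream of the internal start, Mecom-16 (510.5 kb), which overlaps the non-coding RNA gene Gm52621, was called in young post 1 and 3, old pre 2 and young pre 2.

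**Figure D2:**
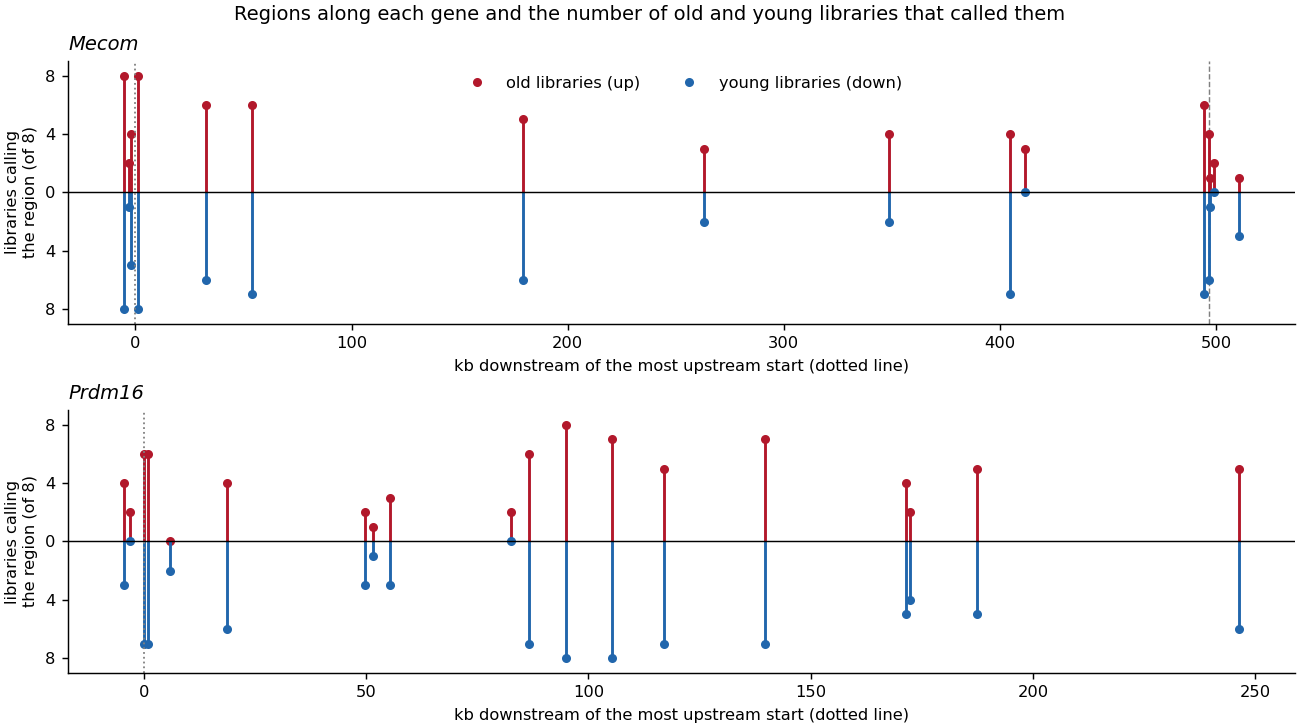
Position of each region in kb downstream of the most upstream promoter start shown (dotted line) against the number of libraries that called it. Old libraries point upward and young libraries downward, of 8 each. The dashed line in the upper panel is the internal Mecom start. Called regions cluster at both Mecom starts, and the Prdm16 regions called in 16, 15 and 14 libraries lie 95.0, 105.3 and 139.7 kb into the gene.

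At Prdm16 the region at the start was not the strongest. Prdm16-3 (chr4:154636629-154638915), which holds the Prdm16 start and that of the antisense gene Prdm16os, was called in all libraries but the 3 shortest lists. It consisted of 2 peaks in 10 of these 13 libraries, and its median percentile was 40.1 (15.2 to 71.7). Its percentile was 20, 34.3 and 40.1 in old post 1 to 3, against 48.4, 41.5, 40.3 and 27.0 in young post 1 to 4. It was 60.4, 52.1 and 15.2 in old pre 1 to 3 and 71.7, 29.0 and 26.1 in young pre 1 to 3. The groups overlapped, with the highest rank in young pre 1, where a single peak covered 2282 bp. Each percentile is that of the highest-scoring peak of the region in its library. Its summit lay at 154638404 and 154638413 in young post 1 and 3, and at 154638660 and 154638642 in young pre 1 and 2. In the other libraries with a call it lay between 154636784 and 154636842, close to the Prdm16 start. The ranks therefore do not all belong to a summit at that start. ATAC-seq has no strand, so the starts of Prdm16 and Prdm16os in this region cannot be told apart. Prdm16-4, 1.0 kb into the gene and at the start of 5930403L14Rik, was called in the same 13 libraries at a median percentile of 61.1.

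The strongest Prdm16 regions formed a block inside the gene, from 86.6 to 139.7 kb. Prdm16-12 (chr4:154540749-154543174, 95.0 kb) was the only one called in all 16 libraries. Its peak covered 1494, 1564, 1797 and 755 bp in old post 1 to 4, against 1781, 1518, 1800 and 2081 bp in young post 1 to 4. It covered 1500, 2208, 1048 and 320 bp in old pre 1 to 4 and 2189, 1255, 1486 and 777 bp in young pre 1 to 4. The peak was narrowest in the 3 shortest lists, and the groups overlapped. Its median percentile was 87.5 (10.1 to 92.7). Prdm16-13 (105.3 kb) was called in 15 libraries, all but old pre 4, at a median percentile of 72.2. Prdm16-11, -14 and -15 of the same block were called in 13, 12 and 14 libraries, at median percentiles of 65.1, 61.6 and 69.0.

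Outside this block the Prdm16 regions were weaker. Prdm16-6 and Prdm16-18 were called in 10 libraries each, Prdm16-19 in 11 and Prdm16-16 in 9, at median percentiles of 17.3 to 44.0. Prdm16-1, 4.5 kb upstream, was called in 7 libraries. Prdm16-9 and Prdm16-17 were called in 6 each, and Prdm16-7 in 5. Prdm16-17 was called in old post 2 and 3, young post 1, 3 and 4 and young pre 1, and in 0 of 4 old pre libraries. Of the 4 regions called in 2 libraries, Prdm16-2 and Prdm16-10 were called in old pre 1 and 2, Prdm16-8 in old pre 2 and young pre 1, and Prdm16-5 in young post 1 and 3.

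Regions with few calls also had weak peaks where they were called. At Mecom, the 4 regions called in 2 or 3 libraries had median percentiles of 0.557 to 5.17, and the 4 called in 13 to 16 libraries had 31.5 to 99.4. At Prdm16 the ranges were 0.556 to 23.4 for 4 regions and 40.1 to 87.5 for 6 regions. The highest-ranked of the rare regions was Prdm16-10, with percentiles of 18.2 and 28.7 in old pre 1 and 2. The score and the call come from the same peak list, so these are descriptions of one measurement.

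**Figure D3:**
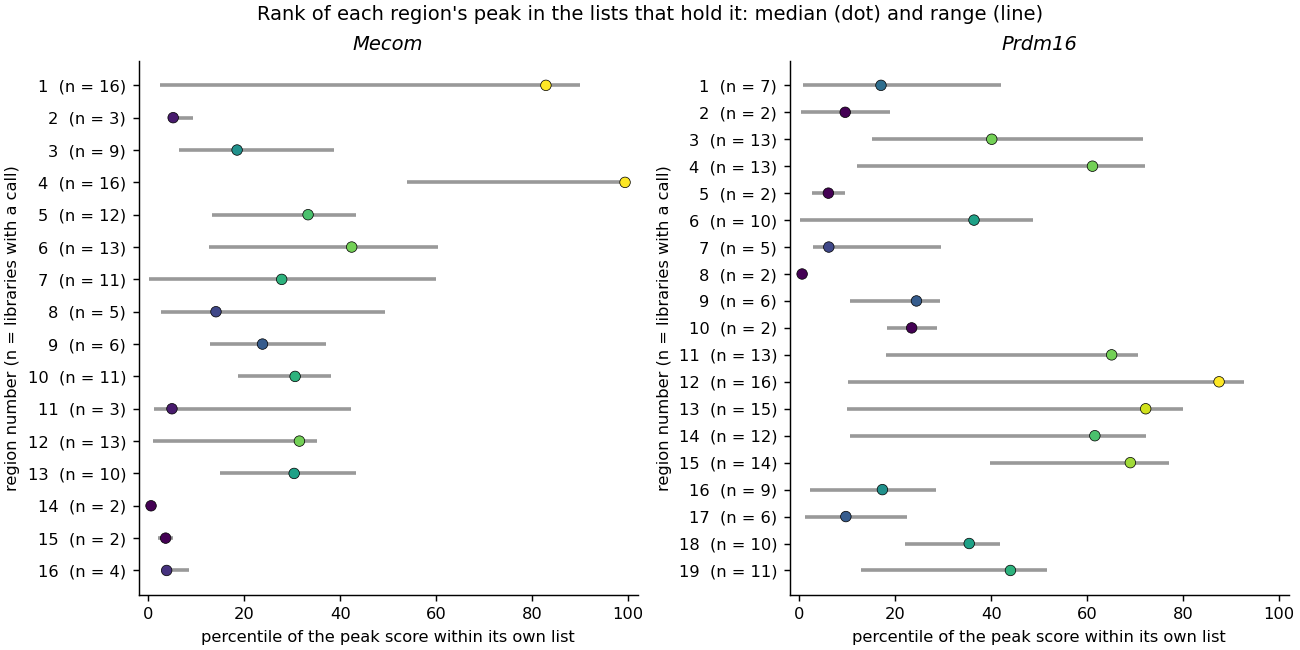
Percentile of a region's peak score within its own list, as the median (dot) and range (line) over the libraries that called it, with the number of these libraries in brackets and as the dot's shade. Mecom region 4 has a median of 99.4, and the regions called in 2 libraries have medians of 23.4 or less.

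The number of regions called followed the length of the peak list. Old post 1 to 4 called 6, 10, 12 and 2 of the 16 Mecom regions, and young post 1 to 4 called 12, 10, 12 and 9. Old pre 1 to 4 called 14, 16, 5 and 2, and young pre 1 to 4 called 10, 7, 7 and 2. Old pre 2 was the only library that called all 16, although 5 lists were longer. Of the 19 Prdm16 regions, old post 1 to 4 called 9, 14, 15 and 3, and young post 1 to 4 called 16, 11, 14 and 13. Old pre 1 to 4 called 14, 17, 6 and 1, and young pre 1 to 4 called 16, 8, 9 and 2.

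**Figure D4:**
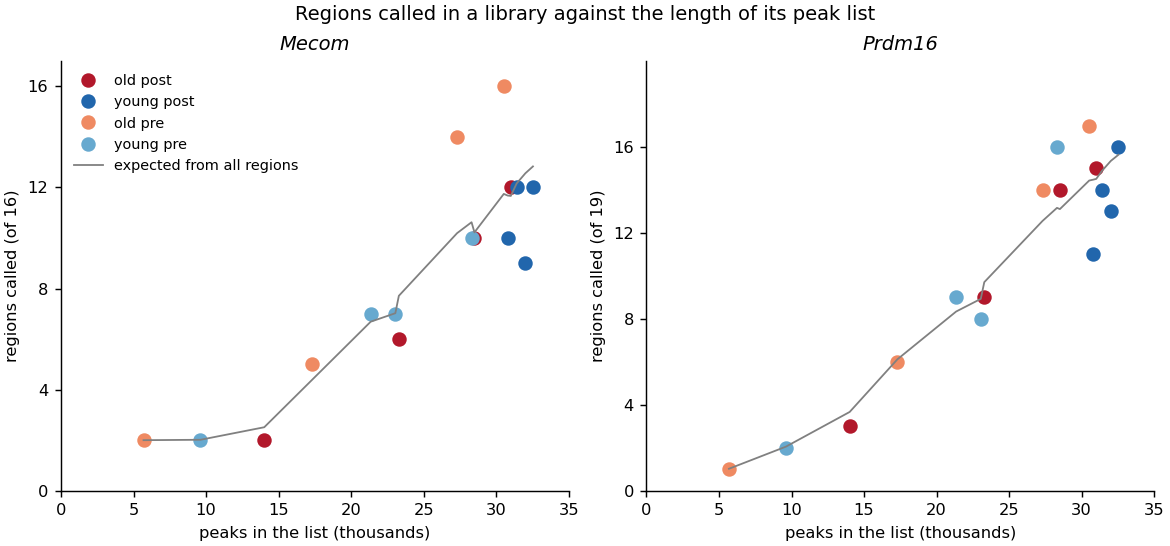
Regions called in each library (dots, coloured by group) against the number of peaks in its list, with the number expected from all regions that were called as widely (grey line). Old pre 1 and 2 lie above the line at Mecom with 14 and 16 of 16 regions, and young post 4 lies below it with 9.

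List length was taken out with a score for each gene and library. It is the percentage of the gene's regions called in a library minus the percentage that the library called among all regions found in as many of the 16 libraries. For each gene the 16 scores add up to 0, which makes the rest lower where some are high, and they lie close to 0 in the shortest lists. They are given as descriptions without a test. At Mecom the score was -10.71, -1.37, 2.12 and -3.19 percentage points in old post 1 to 4, against -5.19, -10.48, -1.0 and -22.28 in young post 1 to 4. It was 23.80, 26.56, 3.85 and -0.02 in old pre 1 to 4 and -3.87, -0.14, 1.97 and -0.07 in young pre 1 to 4. The libraries of day 1, old pre 1 and 2, stood above the other 14, and young post 4 was lowest.

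At Prdm16 the score was -3.72, 4.65, 2.53 and -3.47 points in old post 1 to 4, against 1.88, -18.32, -4.75 and -12.43 in young post 1 to 4. It was 7.55, 13.52, -0.58 and -0.11 in old pre 1 to 4 and 14.95, -4.91, 3.50 and -0.29 in young pre 1 to 4. Here the highest value was that of young pre 1, and old and young pre libraries overlapped. The lowest were those of young post 2 and 4.

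**Figure D5:**
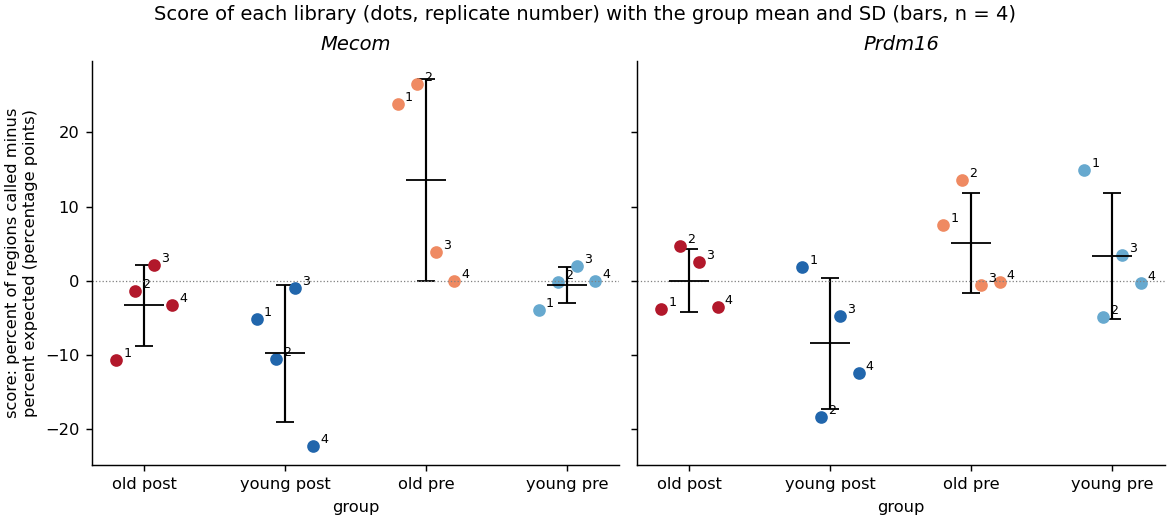
Score of each library (dots, with replicate numbers) in percentage points, with group mean and SD (bars, n = 4 libraries). At Mecom, old pre 1 and 2 lie at 23.80 and 26.56 and the other 14 libraries at 3.85 or less.

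Old and young HSCs before transplantation were compared to ask what differs with age in donors that had not yet given a graft. The Mecom score averaged 13.55 ± 13.57 points in old pre and -0.53 ± 2.43 in young pre libraries (SD, n = 4 each), a difference of 14.07 points. That difference rested on the day 1 libraries. It was 8.39 with old pre 1 left out, 9.37 with old pre 2 left out and 0.91 without both. Within day 2, the day that held both ages, it was 3.93. With only the regions called in at least 4 libraries it was 9.59. At Prdm16 the averages were 5.09 ± 6.74 in old pre and 3.31 ± 8.49 in young pre libraries. The difference of 1.78 points was below the spread between libraries. It was -7.02 within day 2, and leaving out single libraries gave -3.11 (without old pre 2) to 5.20 (without young pre 1). With only the regions called in at least 4 libraries the Prdm16 difference was -1.34. Mecom-15, Prdm16-2 and Prdm16-10 were kept through calls in old pre 1 and 2 alone, so these libraries also chose regions that enter their own scores.

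Single regions were tested across all loci by an exact conditional test in which each library was weighted for its list length, two-sided, with Benjamini-Hochberg adjustment. Before transplantation, 0 of 9407 regions tested passed the adjusted threshold of 0.05 (0%). With no adjustment 215 had a p below 0.05 (2.29%). Fisher's exact test, which uses no weights, also called 0. With 4 libraries per group its smallest p over all regions was 0.143, so it could call none and cannot decide the question. Of the members, 6 Mecom and 6 Prdm16 regions had 3 to 5 calls in 8 libraries and were tested, and 0 passed, with 0 below 0.05 before adjustment and 0 in Fisher's exact test. The smallest p was that of Mecom-5 in this exact test, called in 3 of 4 old pre and 2 of 4 young pre libraries (p = 0.229, adjusted p = 0.999).

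After transplantation the question was whether age differences persist in HSCs recovered from young recipients. The Mecom score averaged -3.29 ± 5.42 points in old post and -9.74 ± 9.22 in young post libraries (SD, n = 4 each). The Prdm16 score averaged 0.00 ± 4.24 in old post and -8.41 ± 8.82 in young post libraries. Both differences, 6.45 and 8.40 points, were below the larger SD. Against the SD pooled over both groups, the Mecom difference was below (7.56) and the Prdm16 difference above (6.92). The Mecom difference was 4.04 without young post 4 and 10.28 without young post 3, and the Prdm16 difference was 4.94 without young post 2 and 13.94 without young post 1. Within shared transposition days the differences were 2.10 at Mecom and 8.44 at Prdm16. The scores draw on all 16 libraries, also those outside this comparison. Without the day 1 libraries, which are pre libraries, the differences were -0.87 at Mecom and 9.14 at Prdm16. In the exact test, 24 of 5163 regions passed (0.465%), all called more often in old post. Within shared days 2 regions passed. With old post 1, old post 2 or young post 1 left out 2 passed, without old post 3 it was 4, and without young post 2, 3 or 4 it was 0. Of the members, 2 Mecom and 5 Prdm16 regions were tested and 0 passed, also before adjustment and in Fisher's exact test. Their smallest p in the exact test was 0.163, for Mecom-9, Prdm16-1 and Prdm16-9. Fisher's exact test with 4 libraries per group gave no p below 0.0286 over all regions, so its lack of calls decides nothing.

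With both stages pooled, the Mecom score differed by 10.26 points between 8 old and 8 young libraries and the Prdm16 score by 5.09. Within shared transposition days these were 2.93 and 1.64, and without the day 1 libraries -0.74 and 2.59. Left out singly, old pre 1 brought the Mecom difference to 5.23 and old pre 2 to 6.45. The Prdm16 difference was 3.21 with old pre 1 left out, 2.49 with old pre 2 and 2.68 with young post 2 left out. The exact test here treats both libraries of each donor as if they were separate donors. In it, 41 of 15182 regions passed (0.27%), 38 of them called more often in old libraries. With old post 2 left out 65 passed, and with old pre 1 or old pre 3 left out 13 or 2 did. Leaving out young post 1 gave 8, and young post 3 or young post 4 gave 7. Of 8 Mecom and 9 Prdm16 regions tested, 0 passed, and 0 did so in Fisher's exact test. The other 8 Mecom and 10 Prdm16 regions had too few or too many calls for this test. Mecom-9, with calls in 4 of the 8 old and 2 of the 8 young libraries, had the smallest p among them (exact test p = 0.0464, adjusted p = 0.812). It was the only member below 0.05 without adjustment, in a comparison where 4.56% of all regions were.

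Some regions were called at 1 age only. At Mecom, 2 of 16 regions were called in no young library (Mecom-11 and Mecom-15), as were 2 of 19 at Prdm16 (Prdm16-2 and Prdm16-10). All 4 included old pre 1 and 2 among the libraries that called them. Over all regions, 2.65% were called in no young library and 5.27% in no old library. The converse was seen at Prdm16-5 alone.

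The comparison of post with pre libraries of the same donors asked what transplantation and recovery left changed. The Mecom score was lower after transplantation in 8 of 8 donors or pools. The change was -34.51, -27.93, -1.73 and -3.16 points in old 1 to 4 and -1.32, -10.34, -2.97 and -22.22 in young 1 to 4. Old 1 and 2, whose pre libraries were made on day 1, had the largest. The mean over post libraries minus that over pre libraries was -13.02 with all 16, and -3.48 when both pre libraries of day 1 were left out and their post libraries kept. With the library old pre 2 alone left out it was -8.57. The Prdm16 score was lower in 7 of 8, with changes of -11.27, -8.87, 3.11 and -3.35 points in old 1 to 4 and -13.07, -13.41, -8.26 and -12.14 in young 1 to 4. The same difference of means was -8.41 points, -5.21 without the 2 pre libraries of day 1 and -4.73 without old pre 2 alone. Since scores are near 0 in the shortest lists, which were pre libraries in 2 of 3 cases, and since stage and day cannot be told apart, these changes were not tested as an effect of transplantation.

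In calls rather than scores, the donors went opposite ways. The Mecom regions called only after transplantation numbered 0, 0, 7 and 0 in old 1 to 4 and 3, 4, 5 and 7 in young 1 to 4. Those called only before it numbered 8, 6, 0 and 0 in old 1 to 4 and 1, 1, 0 and 0 in young 1 to 4. Over all regions, 5.93% of the post calls of old 1 and 7.55% of those of old 2 had not been made before transplantation, against 15.6% to 70.2% in the other donors. Of the pre calls, 19.9% in old 1 and 11.7% in old 2 were not made after it, against at most 3.44% in the other donors. At Prdm16, 0 regions in old 1 and 1 to 11 in the other donors were called after transplantation only. Before it only, there were 5 in old 1, 4 in old 2, 1 in young 1 and 0 in the other 5 donors.

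The exact test, stratified by donor, called 39 of 15182 regions (0.257%), all less often after transplantation. The count was 13 without either library of young 3, 14 without either of young 2, 16 without either of old 3, and 21 or 23 without the post or pre library of young 1. Of 8 Mecom and 9 Prdm16 regions tested, 0 passed, also before adjustment and in Fisher's exact test. The smallest p in this exact test was 0.134 for Mecom-16 (2 of 8 possible calls in post and 2 of 8 in pre libraries, with an adjusted p = 1) and 0.384 for Prdm16-17 (5 of 8 in post and 1 of 8 in pre libraries, with an adjusted p = 1). Regions called in no post library were 2 of 16 at Mecom (Mecom-2 and Mecom-15) and 3 of 19 at Prdm16 (Prdm16-2, Prdm16-8 and Prdm16-10), against 2.71% of all regions. Prdm16-5 was the only member called in no pre library, against 9.0% of all regions. These counts include the 3 regions called in old pre 1 and 2 alone (1.38% of all regions).

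Among 3459 genes with at least 3 regions called in 2 to 15 libraries, those whose scores ran most like those of Mecom over the 16 libraries were Lbh, Tead1, Ntf3, Ntn4 and Irs1. Tead1 encodes a DNA-binding partner of the Hippo pathway, Ntf3 a neurotrophin, Ntn4 a netrin and Irs1 a substrate of the insulin receptor. Their Pearson correlations with Mecom were 0.88 to 0.90 and their Spearman correlations 0.65 to 0.82. In Lbh the scores of old pre 1 and 2 were 35.3 and 16.8 points, and in Tead1 they were 59.7 and 42.2. In each of the 5 genes both scores were above those of the other 14 libraries, whose highest was 5.6 points in Irs1 and 30.6 in Ntf3. The points share libraries, list lengths and the sum of 0, so the correlations are descriptions.

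For Prdm16 the most similar genes were Pecam1, Gab2, Cacna1a, Cit and S1pr3. Pecam1 encodes the adhesion molecule CD31 of endothelium and blood cells, Gab2 a docking protein of cytokine receptors, Cacna1a a calcium channel subunit, Cit a kinase of cytokinesis and S1pr3 a receptor of sphingosine 1-phosphate. Their Pearson correlations were 0.80 to 0.86 and their Spearman correlations 0.68 to 0.88 over the 16 libraries. Mecom and Prdm16 correlated with each other at 0.67 (Pearson) and 0.53 (Spearman). Prdm16 ranked 162 among the genes compared with Mecom, and Mecom ranked 59 among those compared with Prdm16.

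The other genes of the family and pathway were read in the same way. Of the 13 other PRDM genes, 11 had a region (29 regions), and Prdm13 and Prdm14 had none. Prdm9, the histone methyltransferase that places meiotic crossovers, and Prdm4 were among the 3 PRDM genes with a region in all 16 libraries. Prdm6 had 4 of 8 possible calls in old and 7 of 8 in young libraries, a score difference of -21.4 points. It had 7 of 8 in post and 4 of 8 in pre libraries (5.6 points). Of 7 PRDM regions tested in old against young before transplantation, 3 after it, and 12 in each of the comparisons over all 16 libraries, 0 passed and 0 had a p below 0.05 before adjustment.

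All 22 genes of corepressors and other protein partners had a region (71 regions), and 10 of the 22 genes were open in all 16 libraries. Ctbp1 and Ctbp2, the CtBP corepressors, had 3 and 4 regions. The region of Suv39h1, a histone H3 lysine 9 methyltransferase, and that of Hdac1, a histone deacetylase, were called in all 16 libraries. Crebbp, an acetyltransferase, was called 11 of 24 possible times in old and 20 of 24 in young libraries, a score difference of -24.1 points. Of 25 partner regions tested in each comparison over all 16 libraries, 0 passed, with 2 below 0.05 before adjustment in old against young and 0 in post against pre.

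The 13 reported target genes of Mecom or Prdm16 all had a region (84 regions), among them Gata2, Erg and Runx1, transcription factors of HSCs, and Mfn2, a mitochondrial fusion gene. In post against pre, 43 target regions were tested and 0 passed, with 2 below 0.05 before adjustment. Hgf, the gene of hepatocyte growth factor, was called 23 of 32 possible times in post and 8 of 32 in pre libraries, a score difference of 7.7 points.

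All 20 HSC transcription factor genes had a region (157 regions). Of 75 of these regions tested in post against pre, 0 passed and 0 had a p below 0.05 before adjustment. Fli1, an ETS factor gene, was called 41 of 96 possible times in old and 66 of 96 in young libraries, a score difference of -7.9 points. Of the 8 brown adipocyte genes, 6 had a region (31 regions), while Ucp1, the uncoupling protein of brown fat, and Adipoq had none. Ebf2 and Ppargc1a, regulators of brown fat, had 5 and 7 regions. Of 16 brown adipocyte regions tested in each comparison over all 16 libraries, 0 passed.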

How the data were processed

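The members and the gene lists were chosen with earlier results of these data known. Peak lists came from 16 Omni-ATAC libraries. Per the submitters' processing notes, the tools included FastQC, MultiQC, Trim Galore, cutadapt, Genrich, ChIPseeker, featureCounts and DESeq2, with build mm10. Which aligner and settings were used is not given in those notes. Per peak, the deposited lists hold a score in column 7 (read here as an area of significance), a score in column 5 (that value per base, capped at 1000), and in columns 8 and 9 values read as the summit's −log10 p and −log10 q. These meanings come from the values and the file layout, not from the labels. No normalisation between libraries is stated, so only presence was tested, and scores were ranked within a list. Of 387029 peaks, 393 (0.102%) outside chromosomes 1 to 19 and X were left out.

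Peaks overlapping by at least 1 bp were merged. Genes came from RefSeq (GRCm38.p6, 21631 protein-coding genes). Library weights for the exact conditional test were estimated over all regions by conditional maximum likelihood (a Rasch model). Regions with 3 to 5 calls of 8 or 4 to 12 of 16 were tested at an adjusted p of 0.05, and each age contrast without a block. Post against pre was stratified by donor, since the series design pairs these libraries. Same-numbered pre and post libraries had correlations of -0.18 to 0.05. Named genes were those with a region past the threshold (the 1 such region of the target and HSC transcription factor lists, in old against young over both stages, is not reported here), those with the largest differences in calls, and the 5 most correlated with each gene; further list members are named as examples chosen after their values were seen. P-values set the calls of a region against independent draws from libraries with fixed weights. They do not measure the spread between donors or deviations that libraries share, such as those of day 1. Software was Python 3.11.15 with scipy 1.17.1, pandas 2.3.3, numpy 2.4.6 and matplotlib 3.10.9.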

Additional observations from a re-analysis of the deposited data

How the results depend on the processing

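No Mecom or Prdm16 region passed the threshold in any of 95 tests over all comparisons and alternatives. The lists limit what can be seen: the shortest holds 5687 peaks and the longest 32530, and the reads behind them are unknown. The 41 regions called in old against young over both stages became 0 with Fisher's exact test, 0 and 16 with lists cut to the length of the shortest and the third shortest, 12 with scores of at least 400, 6 within shared transposition days, and 14 without the day 1 libraries, an alternative chosen after seeing the data. Same-numbered old and young libraries did not deviate together (correlations of -0.26 to 0.04), and with the replicate number as a block the count was 3; leaving out single libraries gave 2 (without old pre 3) to 65 (without old post 2), with 13 without old pre 1, 8 without young post 1 and 7 without young post 3 or 4. The 24 called after transplantation became 0 with Fisher's exact test, both shortened lists or scores of at least 400, 4 with the replicate block, 2 within shared days, and 0 to 20 without single libraries (20 without old post 4, at most 4 without any other). The 39 called in post against pre became 0 with Fisher's exact test and the shortest lists, 3 with the third shortest, 18 with scores of at least 400, 61 with no replicate block, 80 without the 3 shortest lists, 65 without the day 1 libraries, and 13 to 39 without single libraries. With 4 libraries per group, Fisher's exact test gave no p below 0.143 before and 0.0286 after transplantation, so its 0 decides nothing there. Before transplantation 0 were called throughout. The causes were not tested.

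The Mecom score difference of 14.07 points before transplantation was 3.93 within shared days and 0.91 without day 1. That of 6.45 after it was -18.37 and -1.27 with lists cut to the shortest and the third shortest. It was -5.32 with scores of at least 400 and -0.87 without day 1. The pooled 10.26 was -1.83 with the shortest lists and -0.74 without day 1. The Mecom difference in post against pre kept its sign under 25 alternatives, at -15.22 to -3.48. The Prdm16 difference of 1.78 before transplantation was 10.77 with scores of at least 400 and -7.02 within shared days, and its sign changed under 6 of 18 alternatives. That of 8.40 after it was 0.00, -13.72 and -5.57 with the shortest lists, the third shortest and scores of at least 400. The pooled 5.09 was -4.99 with the third shortest, and that of -8.41 in post against pre was 0.00 with the shortest lists and 0.45 with the third shortest. With lists cut to the shortest, the third shortest or scores of at least 400, Mecom kept 2, 3 or 9 regions and Prdm16 1, 7 or 11.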

Other observations

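Marker genes of other cell types were called in the same lists, and their part in the values at Mecom and Prdm16 was not tested. Of the erythroid, granulocyte and monocyte, B cell, megakaryocyte, and endothelial and stromal regions tested, 0 passed in any comparison. No T and NK cell region had a number of calls that could be tested. Nor had any erythroid region in old against young after transplantation, or any B cell region before it. At most 11 regions of a list were tested in a comparison, so the lack of calls decides nothing. Score differences in old against young ran both ways within each list. Of the granulocyte and monocyte genes, S100a9 had 7 of 8 possible calls in post and 1 of 8 in pre libraries, a score difference of 30.2 points. Csf1r and Itgam differed by 15.8 and 9.3 points, Ly6c2 by 0 and Cebpe by -19.2, with 13 of 16 calls in post and 13 of 16 in pre libraries.

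Of 7 endothelial and stromal genes, 6 had a region (20 regions), and Lepr had none. In post against pre, the score differences were 21.9 points for Col1a1, a collagen gene with 15 of 16 possible calls in post and 6 of 16 in pre libraries, 12.8 for Pdgfra and 2.5 for Cdh5. They were -6.2 for Kdr, -10.0 for Cxcl12 and -10.8 for Pecam1. In old against young, Cxcl12, a stromal chemokine gene, had 4 of 16 calls in old and 9 of 16 in young libraries (-22.3 points). Kdr and Pdgfra differed by -4.0 and -3.7 points, while Pecam1, Col1a1 and Cdh5 differed by 3.8, 4.5 and 11.8 points.

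The 5 megakaryocyte genes all had a region (14 regions). Their score differences in old against young were 9.4 points for Vwf, 6.5 for Itga2b, 0 for Pf4 and Gp9 and -4.0 for Gp1bb. In post against pre they were -12.7 points for Vwf, -6.4 for Itga2b, -3.9 for Gp1bb, -1.3 for Gp9 and 0 for Pf4. The 1 region of Pf4 was called in all 16 libraries, which fixes its score at 0.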
